A study of Mus musculus with 2 samples.

Results

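The genes described here encode antioxidant enzymes and enzymes that make, recycle or use glutathione: the peroxiredoxins, glutathione peroxidases, glutathione S-transferases, superoxide dismutases, thioredoxins, thioredoxin reductases and 7 single genes (Cat, Gsr, Gss, Gclm, Hmox1, Srxn1 and Glrx). They were chosen by gene symbol, and 51 of the 27998 annotated features belonged to the set. The set leaves out 2 genes of these families. The data are 2 single-cell RNA libraries from lungs of male mice, 1 labelled WT and 1 labelled IP-/- (IPKO), where IP is the prostacyclin receptor. Per the labels, flow cytometry took cells that carried EpCAM but none of 5 surface markers (CD24, CD31, CD34, CD45 and Sca-1), a gate meant for alveolar type 2 (AT2) cells, the surfactant-producing cells of the alveolus. The labels give no age, strain background or number of animals, and both groups went through the same sort. With 1 library per genotype there is no replicate, so no test between genotypes was possible and none was made, and every interval below covers counting error only.

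Peroxides in a cell are reduced mainly by peroxiredoxins, which are recharged by thioredoxin and thioredoxin reductase, by glutathione peroxidases, which draw on glutathione, and by catalase in peroxisomes. Superoxide dismutases supply hydrogen peroxide from superoxide, and glutathione S-transferases couple glutathione to reactive lipids and foreign compounds. Many of these genes are known targets of the transcription factor NRF2, and AT2 cells are known for high levels of PRDX6, a peroxiredoxin that also takes part in surfactant phospholipid turnover.

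Cells were kept when at least 500 genes were detected and at most 20% of the unique molecular identifiers (UMIs, 1 per captured RNA molecule) were mitochondrial, which left 6745 cells labelled WT and 8072 labelled IPKO. AT2 cells, in which at least 10% of UMIs came from Sftpc and which fell in none of the classes below, numbered 6121 and 7112, with 116424406 and 125022471 UMIs. Levels are given as CPM, the UMIs of a gene per 1000000 UMIs of its class. The 10 AT2 markers, which include Sftpc, summed to 301935 and 299674 CPM in AT2 cells, and all 10 were present. The Sftpc limit thus set much of these sums. Keratin-high cells, the highest 5% by the summed share of Krt7, Krt8, Krt18 and Krt19, numbered 325 and 392, and 112 and 235 cells carried endothelial, lymphocyte, myeloid or mesenchymal markers and were taken as non-epithelial. The 2 libraries also differed in other ways: median mitochondrial share in AT2 cells was 5.27% labelled WT and 3.91% labelled IPKO, and 11 early response and heat shock genes held a median of 0.187% and 0.475% of UMIs. The gene of the IP receptor, Ptgir, had 1 UMI in all kept cells labelled WT and 328 in those labelled IPKO, against the direction of the labels. The 3' tags do not show whether a deleted part of the gene is transcribed, so directions between the libraries are given as labelled. The libraries shared 79 barcodes, 16 of them among kept cells.

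In AT2 cells the set summed to 4498 CPM in the library labelled WT and 4598 in the library labelled IPKO. A few genes made up most of it. 10 members stood above 100 CPM, 18 between 20 and 100, 6 between 5 and 20, 2 between 1 and 5 and 11 below 1, while Gstm6, Prdx6b, Gpx5 and Gpx6 had no UMI in either library. A 3' tag counts a molecule once whatever the length of its RNA, so these levels can be set side by side between genes as far as capture is equal.

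Peroxiredoxins and thioredoxin were among the highest members. Txn1, the cytosolic thioredoxin, stood at 629 CPM in AT2 cells labelled WT and 646 in those labelled IPKO. Prdx6 was at 533 and 520 and Prdx1, a cytosolic peroxiredoxin, at 448 and 451. Prdx5, found in mitochondria, peroxisomes and cytosol, was at 128 and 148, and cytosolic Prdx2 at 128 and 137. The endoplasmic reticulum form Prdx4 (49.5 and 52.2) and the mitochondrial form Prdx3 (34.9 and 41.6) were lower. The peroxiredoxins stood in nearly the same order in both libraries, and Prdx2 and Prdx5 did not differ beyond counting error in the library labelled WT. The reductases stood far below thioredoxin: cytosolic Txnrd1 was at 57.1 and 55.3, Txnrd3 at 35.7 and 38.8 and mitochondrial Txnrd2 at 16.7 and 17.9, beside mitochondrial thioredoxin Txn2 at 40.7 and 42.8.

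Among the glutathione peroxidases, Gpx4, which reduces lipid hydroperoxides in membranes, was the most abundant at 626 and 669 CPM in AT2 cells. Gpx1, the widespread cytosolic form, was at 303 and 283. Gpx8 (56.6 and 55.5) and Gpx7 (6.92 and 9.71), both of the endoplasmic reticulum, and the epithelial form Gpx2 (5.18 and 5.22) were lower, and secreted Gpx3 was at 0.876 and 0.496. In Gpx4, 57.9% of the 50-base stretches in the last 500 bases of its transcripts also occur in a pseudogene or other locus, so reads could have been split there.

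The glutathione S-transferases were led by Gstt1 of the theta class. Gstt1 was at 110.4 and 132 CPM, Gsta4, which prefers lipid aldehydes such as 4-hydroxynonenal, at 57.2 and 74.6, Gstt3 at 53.7 and 60.5 and Gstt2 at 20.02 and 25.7. Of the mu class, Gstm1 reached 63.4 and 62.9 and Gstm2 9.50 and 8.49. Gstk1 (43.0 and 41.8), Gstz1 (38.7 and 44.1) and Gstp1 (23.2 and 31.6) were intermediate. The others stood below 5 CPM in both libraries: Gstm4 at 2.59 and 3.11, Gstcd, which carries a transferase-like domain, at 2.29 and 1.82, and Gsto1, Gsto2, Gstp2, Gstt4, Gstm3, Gstm5, Gstm6, Gstm7, Gsta1 and Gsta2 at no more than 1.18.

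Catalase (Cat), the peroxisomal hydrogen peroxide enzyme, was at 473 CPM in AT2 cells labelled WT and 404 in those labelled IPKO, about the level of Prdx1. Cytosolic Sod1 was at 225 and 244 and mitochondrial Sod2 at 85.4 and 98.2, and extracellular Sod3 was nearly absent with 23 and 15 UMIs in all. Sod1, Prdx2, Prdx5, Txnrd1, Gpx2, Gclm, Gss and Gsto1 are among the members that overlap a gene on the other strand, and the sources used here do not say whether counting used strand.

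The remaining members, several of them textbook NRF2 targets, were expressed at modest levels in AT2 cells. Glrx, which removes glutathione from proteins, was at 73.5 and 72.8 CPM and heme oxygenase Hmox1 at 49.9 and 45.3. Gsr, which regenerates reduced glutathione, was at 26.1 and 29.9, and the glutathione synthesis genes Gclm (modifier subunit of the first step) and Gss (second step) were at 22.5 and 22.9, and at 11.2 and 11.9. Srxn1, which repairs overoxidised peroxiredoxins, was at 6.47 and 6.14, near the low end of the 34 members with at least 5 CPM.

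**Figure D1:**
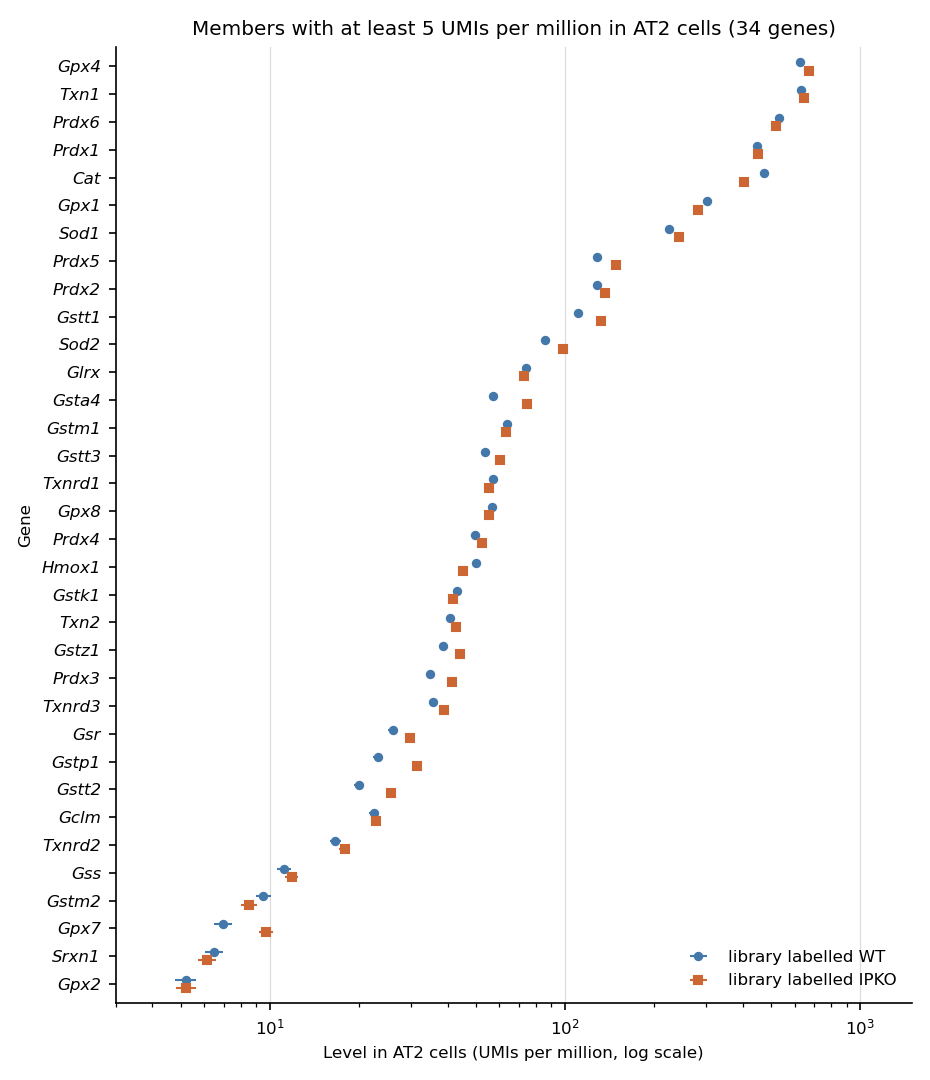
Level of the 34 members with at least 5 CPM in AT2 cells (horizontal axis, log scale) for the library labelled WT (circles) and the library labelled IPKO (squares), with exact 95% Poisson intervals that cover counting error only and are mostly narrower than the symbols. The genes span from about 5 (Gpx2) to over 600 (Gpx4, Txn1), and the 2 libraries lie close together for most genes, with Gsta4, Gstp1, Gstt2 and Gpx7 to the right in the library labelled IPKO and Cat to the left.

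The 2 libraries were then compared as labelled. Most members were at nearly the same level in both. 34 members averaged 5 CPM or more over the 2 libraries. Of these, 4 were called higher in the library labelled IPKO and 0 were called lower, where a call needed a log2 ratio of at least 0.32 in size (1.25-fold) and an exact conditional binomial 95% interval that left out 0. Among all 8492 genes at that level, 13.8% were called, 8.84% as higher and 4.93% as lower, so the members' count is near that background and is no result about the set. The median log2 ratio was 0.08 over the 34 members and 0.06 over all genes, and 23 members had a ratio above 0 and 11 below.

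The 4 genes called higher were 3 transferases and a peroxidase. Gstp1 (chr19:4035407-4037985, GRCm38, minus strand), the pi-class transferase, had a log2 ratio of 0.44 (0.37 to 0.51). Gpx7 (chr4:108400390-108406961, minus strand) had 0.49 (0.36 to 0.62) and rested on 806 and 1214 UMIs. Gsta4 (chr9:78182774-78209349, plus strand) had 0.38 (0.34 to 0.43), and Gstt2 (chr10:75831114-75837424, minus strand) had 0.36 (0.28 to 0.44). In Gstp1, 37.7% of the stretches near the transcript ends are shared with Gstp2 or Gstp-ps, so its counts are less certain than those of the other 3. Gstp2 itself was at 0.679 and 0.976 CPM. Under median-of-ratios scaling Gstt2 was no longer called. The lowest ratio of the set was that of Cat at -0.23 (-0.25 to -0.21), which is under the fold required.

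Because mitochondrial share and early response load differed between the libraries, the same ratios were taken among AT2 cells of like share. Among cells with 2 to 5% mitochondrial UMIs (2468 and 4993 cells) and with 5 to 10% (3431 and 1444 cells), the log2 ratio of Gstp1 was 0.33 and 0.47, that of Gstt2 0.31 and 0.39, that of Gsta4 0.29 and 0.42 and that of Gpx7 0.57 and 0.28. These kept the direction of the whole class, though Gstt2 and Gsta4 in the first range and Gpx7 in the second were under the required fold. The remaining mitochondrial ranges held few cells of 1 or both libraries, and the intervals of all 4 genes included 0 there. Under 2% (64 and 593 cells) Gstp1 had 0.17, Gstt2 0.20, Gsta4 -0.03 and Gpx7 -0.01 (-1.02 to 1.17). Over 10% (158 and 82 cells) Gstp1 had 0.54, Gsta4 0.13, Gstt2 -0.0034 and Gpx7 -1.05 (-4.26 to 1.15).

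In the 4 ranges of early response share (under 0.1%, 0.1 to 0.3%, 0.3 to 0.6% and above), Gstp1 gave 0.51, 0.48, 0.50 and 0.41. Gsta4 gave 0.27, 0.40, 0.48 and 0.28, and Gstt2 gave 0.18, 0.41, 0.53 and 0.33. Gpx7 gave 0.38, 0.46, 0.54 and 0.70. All of these were above 0, and the lowest range of Gstt2 had an interval that reached below it (-0.02 to 0.37). Cat was below 0 in each of the 8 ranges of both kinds, from -0.38 to -0.14.

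Cells with much keratin are of interest because Krt8 and related keratins rise in AT2 cells on the way to the alveolar type 1 fate and after injury. Of the keratin-high cells, 301 labelled WT and 353 labelled IPKO still had at least 10% Sftpc, and 283 and 344 of these also had under 0.1% of UMIs from 6 airway markers. In the 283 and 344, AT2 markers summed to 287592 and 282716 CPM, close to AT2 cells, and the 4 keratins to 1598 and 1570, against 270.2 and 301 in AT2 cells. Since Sftpc is 1 of the AT2 markers, their sums here and under 10% Sftpc were largely set by the Sftpc limit. The keratin sums were set by the choice of the class. The keratin-high cells under 10% Sftpc (24 and 39) had AT2 markers at 52963 and 52249. Their 6 airway markers summed to 191321 labelled WT and 3141 labelled IPKO, so the 2 libraries differed widely there. Of the keratin-high cells, 62 and 80 lay within 10% above the threshold of 909 CPM of keratin, and 74 and 108 other cells lay within 10% below it, so the class is a range and not a type.

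Over all keratin-high cells, Gpx2, Srxn1, Txnrd1, Gclm, Gstm1, Gsta4, Gstp1, Gss, Gstm2 and Gsto1 were called higher than in AT2 cells in both libraries (log2 ratio of at least 0.58, which is 1.5-fold, and an interval that leaves out 0), and Cat was called lower in both. That gave 12 higher and 2 lower of 35 members in the library labelled WT, where 11.0% of all genes were called higher and 3.67% lower. In the library labelled IPKO it gave 10 and 1 of 35, against 9.25% and 2.58% of all genes. In either direction 14.7% and 11.8% of all genes were called. The 6 airway markers summed to 17174 and 1606 CPM in these cells, against 1272 and 361 in AT2 cells. Gsto1 was measured here through the keratin-high class alone, since AT2 cells had under 5 CPM, so its call was fixed by the filter. The median of all genes was itself at 0.12 and 0.13 in these contrasts. Against that median, 5 members were called higher in both (Srxn1, Gpx2, Gclm, Gstm1 and Gsto1) and 2 lower (Cat and Gstt3). The share of all genes called so in both libraries is not given here, so these counts are no result about the set.

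Restricting the class to keratin-high cells with Sftpc and few airway markers, a restriction chosen after seeing the data, shortened this list. In the library labelled WT, 7 of 34 members were called higher (Gpx2, Srxn1, Txnrd1, Gclm, Gsr, Gstp1 and Gpx7) and 1 lower (Cat), where 9.05% and 3.86% of all genes were called and 12.9% in either direction. In the library labelled IPKO, 2 were called higher (Gpx2 and Srxn1) and 1 lower (Cat), where 5.35% and 2.66% were and 8.02% in either direction. Gpx2, Srxn1 and Cat were thus called alike in both libraries, under median-of-ratios scaling too, while in the library labelled WT that scaling left 5 higher and 2 lower: Gpx7 and Gstp1 dropped out and Txnrd3 was added. The share of all genes called under that scaling is not given here. Gstm2, with 9.50 and 8.49 CPM in AT2 cells, was at 8.22 and 9.56 in the restricted class. Gstm1 (log2 ratio of 0.57 labelled WT and 0.09 labelled IPKO), Gsta4 (0.56 and 0.26) and Gss (0.29 and 0.55) were called there in neither library. Each came just short of the required fold in 1 library. Gsto1 was under 5 CPM in the restricted class and was not measured.

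Srxn1 (ENSMUSG00000032802, chr2:152105516-152111376, plus strand) stood at 34.3 CPM (29.4 to 39.8, 171 UMIs) in the restricted keratin-high cells labelled WT and 16.9 (13.7 to 20.6, 99 UMIs) in those labelled IPKO. Against AT2 cells this was 5.30-fold and 2.75-fold, with log2 ratios of 2.41 (2.16 to 2.65) and 1.46 (1.14 to 1.76). Gpx2 (ENSMUSG00000042808, chr12:76792333-76795554, minus strand) was at 29.9 and 16.2, which is 5.77-fold and 3.11-fold. Of the 50-base stretches in the last 500 bases of Gpx2 transcripts, 20% also occur in Gpx2-ps1. These were the largest ratios of the 34 members measured in this class, and both genes were among the lowest of them in AT2 cells.

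Txnrd1 (chr10:82833951-82897712, plus strand) was at 119 CPM (110 to 129) in these cells labelled WT and 76.2 (69.2 to 83.6) in those labelled IPKO, a log2 ratio over AT2 cells of 1.06 and 0.46. Gclm (chr3:122245557-122270732, plus strand) was at 41.7 and 28.3, a log2 ratio of 0.89 and 0.31. Both were called higher in the library labelled WT and did not reach the required fold in the library labelled IPKO. Gsr was at 42.7 and 39.8, with ratios of 0.71 and 0.41.

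Cat (ENSMUSG00000027187, chr2:103453849-103485160, minus strand) went the other way, to 267 CPM (253 to 282) labelled WT and 241 (229 to 254) labelled IPKO, log2 ratios of -0.82 and -0.74. The abundant members moved less: Txn1 had ratios of 0.46 and 0.36, Prdx1 0.38 and 0.18, Gpx4 0.36 and 0.20, Prdx6 0.07 and 0.02, Gpx1 -0.22 and -0.11 and Sod1 -0.14 and -0.27. None of these reached the required fold. Hmox1, at 56.2 and 44.4, had ratios of 0.17 and -0.03, and was called in neither library.

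**Figure D2:**
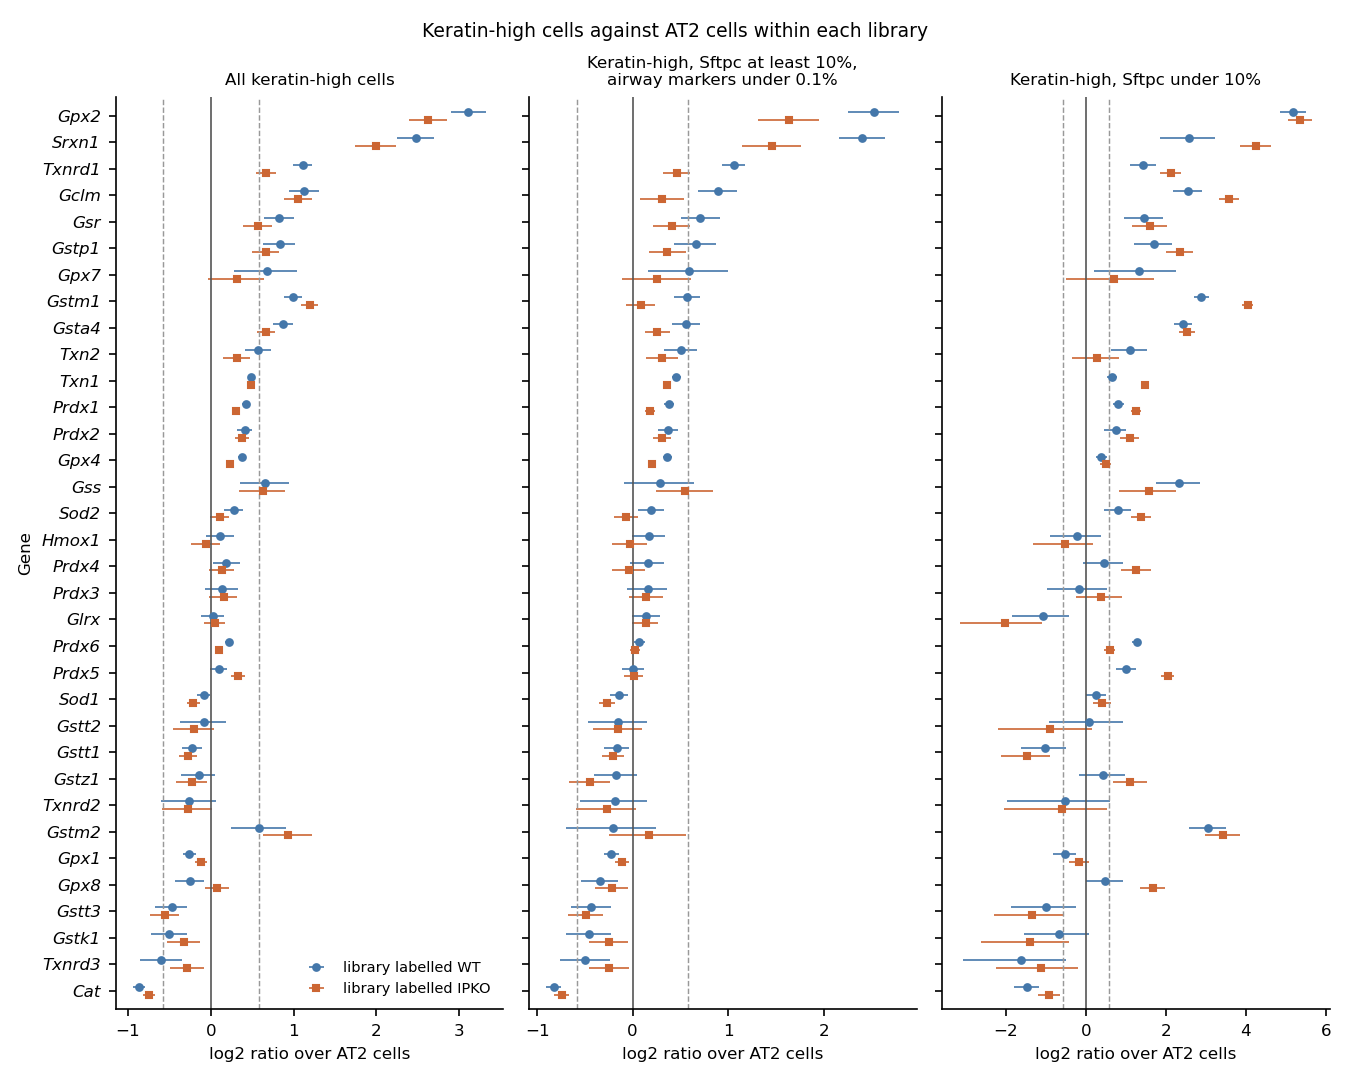
Log2 ratio of keratin-high cells over AT2 cells (horizontal axis) within the library labelled WT (circles) and the library labelled IPKO (squares) for the 34 members measured in the middle panel, with exact 95% intervals for counting error. The panels show all keratin-high cells, those with at least 10% Sftpc and under 0.1% airway markers, and those under 10% Sftpc, each on its own axis, and dashed lines mark 0.58 in size. Gpx2 and Srxn1 lie far to the right and Cat to the left in the first 2 panels, and in the middle panel the points of Gstm1, Gstm2, Gsta4 and Gss lie within the dashed lines.

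The promoter windows of the 4 genes with the largest ratios in the restricted class labelled WT, and of Cat, are printed to show the sequence around their starts. Each runs from 250 bases before to 50 bases after a RefSeq transcription start (GRCm38.p6), 5′ to 3′ on the gene's strand, and capitals mark TGACNNNGC, the core of the antioxidant response element bound by NRF2, and TGACTCA or its reverse complement TGAGTCA, the AP-1 site, on either strand. The windows are Srxn1 at chr2:152105274-152105573 (plus), Gclm at chr3:122245307-122245606 (plus), Txnrd1 at chr10:82858956-82859255 (plus), the one of its 3 windows with a match, Gpx2 at chr12:76795505-76795804 (minus) and Cat at chr2:103485104-103485403 (minus).
Srxn1: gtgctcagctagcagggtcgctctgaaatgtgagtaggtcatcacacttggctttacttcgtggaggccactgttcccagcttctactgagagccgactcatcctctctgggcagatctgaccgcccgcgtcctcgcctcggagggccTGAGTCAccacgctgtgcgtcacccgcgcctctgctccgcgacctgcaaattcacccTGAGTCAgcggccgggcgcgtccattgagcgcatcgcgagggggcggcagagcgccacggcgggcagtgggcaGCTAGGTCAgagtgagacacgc
Gclm: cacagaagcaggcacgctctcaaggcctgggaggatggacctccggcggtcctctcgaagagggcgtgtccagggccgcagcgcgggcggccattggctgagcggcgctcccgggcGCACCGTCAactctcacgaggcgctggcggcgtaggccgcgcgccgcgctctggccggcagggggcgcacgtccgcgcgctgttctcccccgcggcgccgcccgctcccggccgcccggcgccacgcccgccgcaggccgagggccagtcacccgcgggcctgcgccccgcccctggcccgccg
Txnrd1: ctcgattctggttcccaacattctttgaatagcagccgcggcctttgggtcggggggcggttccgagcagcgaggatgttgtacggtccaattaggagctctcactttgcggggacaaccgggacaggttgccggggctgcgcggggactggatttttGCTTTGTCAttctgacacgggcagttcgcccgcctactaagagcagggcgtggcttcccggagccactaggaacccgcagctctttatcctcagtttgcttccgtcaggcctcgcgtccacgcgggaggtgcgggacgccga
Gpx2: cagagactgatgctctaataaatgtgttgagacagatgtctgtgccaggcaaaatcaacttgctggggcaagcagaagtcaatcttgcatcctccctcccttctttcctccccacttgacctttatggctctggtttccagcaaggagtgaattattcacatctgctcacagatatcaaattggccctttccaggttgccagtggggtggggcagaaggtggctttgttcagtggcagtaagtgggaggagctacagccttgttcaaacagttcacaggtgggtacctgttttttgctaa
Cat: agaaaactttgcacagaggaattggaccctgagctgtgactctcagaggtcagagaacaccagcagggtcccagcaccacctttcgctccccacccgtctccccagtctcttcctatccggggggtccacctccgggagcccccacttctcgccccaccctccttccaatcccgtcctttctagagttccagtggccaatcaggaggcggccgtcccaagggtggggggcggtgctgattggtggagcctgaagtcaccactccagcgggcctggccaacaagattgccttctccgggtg

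Srxn1 holds TGAGTCA with first bases 102 and 45 before the start and the longer motif 29 bases after it. Gclm and Txnrd1 each hold the longer motif once, 134 and 92 bases before the start, and the windows of Gpx2 and Cat hold neither. Of the 44 members with a window, 7 (15.9%) hold the longer motif, beside 12.4% of all 32851 windows of that length. TGACTCA or TGAGTCA stands in the windows of 6 members (13.6%), beside 5.20% of all windows, and in Prdx1 1 of its 2 copies lies within the longer motif. A member can have several windows, which gives it more than 1 chance of a match, and a match of letters is no evidence of binding.

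The keratin-high genes were followed along the keratin share itself, over cells with at least 10% Sftpc, under 0.1% airway markers and at least 3000 UMIs. The ranges above the 95th percentile held 153 and 105 cells labelled WT and 191 and 124 labelled IPKO, largely those of the restricted class. The genes were taken from the calls in that class, so their levels in these ranges repeat those calls and are no further support. From the lowest 25% of these cells to the highest 2% by keratin share, Srxn1 went from 4.71 to 66.0 CPM labelled WT and from 5.65 to 32.9 labelled IPKO. Gpx2 went from 3.75 to 41.4 and from 4.42 to 23.2. Cat went from 500.2 to 183 and from 430.3 to 191, with a lower value in each successive range of keratin share in both libraries. Most of the difference in Srxn1 lay in the highest range: between the 95th and 98th percentile it was still at 14.8 (10.6 to 20.2) and 8.69 (5.82 to 12.5).

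Txnrd1 went from 51.6 to 177 CPM over the same ranges labelled WT and from 51.2 to 86.6 labelled IPKO. For Gclm the levels were 20.7 and 63.8 labelled WT, and 21.7 and 30.5 labelled IPKO. Prdx6 showed no such course, with 515 to 584 over the 7 ranges labelled WT and 478 to 541 labelled IPKO. The highest 2% held 105 cells labelled WT and 124 labelled IPKO, with a median of 17063 and 16808 UMIs and 19.6% and 19.7% Sftpc, while median early response share was 0.171% and 0.493%.

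**Figure D3:**
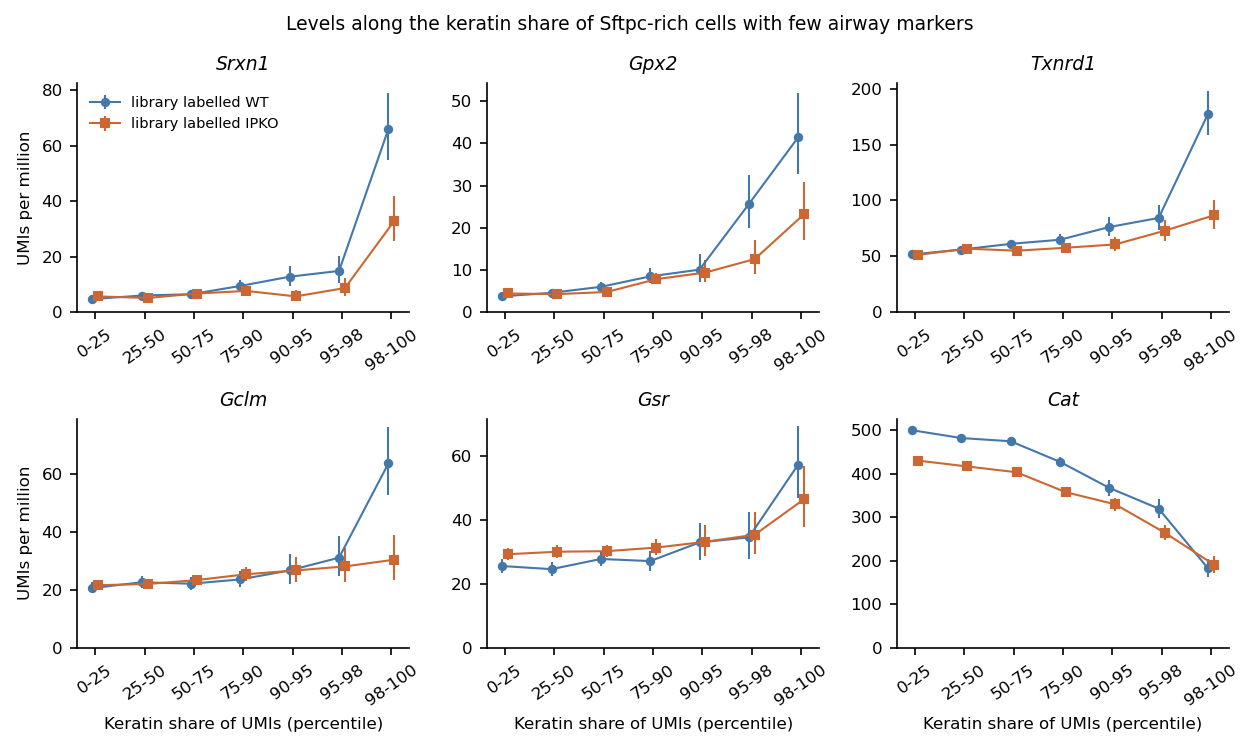
Level in CPM (vertical axes, each from 0) of 6 members in 7 ranges of keratin share (horizontal axes, percentiles over both libraries) among cells with at least 10% Sftpc and under 0.1% airway markers, for the library labelled WT (circles) and the library labelled IPKO (squares), with exact 95% Poisson intervals. Srxn1, Gpx2, Txnrd1 and Gsr are highest and Cat is lowest in the top 2% in both libraries, and for Srxn1, Gpx2, Txnrd1 and Gclm the point labelled WT there lies above the interval of the point labelled IPKO.

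Several of these genes also differed when the keratin-high cells of the 2 libraries were set against each other. In all keratin-high cells, 4 of 35 members were called lower in the library labelled IPKO (Gsto1, Srxn1, Txnrd1 and Gpx2) and 2 higher (Txnrd3 and Prdx5), where 5.19% and 11.5% of all genes were called and 16.7% in either direction. Gsto1 rested on 117 and 79 UMIs, of which 114 and 63 came from 6 and 13 cells under 10% Sftpc, and the airway markers of the whole class stood at 17174 and 1606 CPM. Its log2 ratio turned to 2.24 in cells with at least 10% Sftpc, from only 3 and 16 UMIs. With the airway limit added it was 1.35 (-0.65 to 3.87), from 3 and 9 UMIs. Gsto1 was under 5 CPM in these cells of both libraries, so the turn rests on few counts. In the restricted class, 6 of 34 were called lower and 1 higher, where 5.99% and 7.45% of all genes were and 13.4% in either direction. The log2 ratio was -1.02 (-1.39 to -0.66) for Srxn1, -0.88 (-1.27 to -0.50) for Gpx2, -0.65 (-0.83 to -0.47) for Txnrd1, -0.56 (-0.86 to -0.26) for Gclm, -0.49 (-0.69 to -0.30) for Gstm1 and -0.34 (-0.59 to -0.09) for Hmox1. Txnrd3 had 0.38 (0.04 to 0.71). In all keratin-high cells Gclm had -0.05 (-0.28 to 0.19) and Gstm1 0.19 (0.05 to 0.33), so the direction of Gstm1 depended on the restriction. In AT2 cells Srxn1, Gpx2, Txnrd1 and Gclm had ratios between -0.07 and 0.02. Their ratios in the restricted class thus restate how the ratios over AT2 cells given above differed between the libraries.

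The UMIs of Srxn1 and Gpx2 were carried by few cells. In the restricted class the 10 cells with most Srxn1 held 36.3% of its UMIs labelled WT and 39.4% labelled IPKO, and 91 of 283 and 64 of 344 cells had any. For Gpx2 the 10 highest cells held 31.5% and 30.5%, and for Cat 12.6% and 10.7%. Keratin level was alike between the libraries in this class, whereas the median early response share was 0.199% labelled WT and 0.494% labelled IPKO. Among its cells with under 0.3% early response UMIs (186 and 82), a restriction chosen after seeing the data, the log2 ratio was -0.39 (-0.95 to 0.14) for Srxn1 and -0.28 (-0.75 to 0.17) for Gclm, so those 2 calls were lost, as was that of Txnrd3 at 0.02 (-0.59 to 0.61). In the same cells it was -0.68 (-1.31 to -0.09) for Gpx2, -0.46 (-0.75 to -0.17) for Txnrd1 and -0.73 (-1.10 to -0.37) for Gstm1. Hmox1 (-0.50) and Cat (-0.41) were also called lower there, and Gsta4 (0.45), Prdx5 (0.39) and Gstt1 (0.33) higher. The share of all genes called in these cells is not given here, so the number of calls is no result about the set. Markers of lymphocytes also differed, at 19.3 and 89.6 CPM over 11 genes, of which 9 and 3 were at 0, and their part in these ratios was not tested.

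Keratin-high cells under 10% Sftpc were few. Gsta1, an alpha-class transferase, had 18 and 29 UMIs there (34.9 and 57.6 CPM) and 0 and 1 in AT2 cells. These UMIs came from 1 of 24 and 3 of 39 cells, and 91.7% of the stretches near the ends of its transcripts also occur in Gsta2, Gm3776 or Gm10639. Gsto1, the omega-class transferase, was at 221 and 125 against 0.704 and 1.18, Gpx2 at 188 and 215 and Gstm1 at 471 and 1039.7. Prdx6 was at 1285 and 787 and Gsta4 at 310 and 433, both called higher than in AT2 cells in both libraries. In these cells 22 of 39 members labelled WT and 22 of 37 labelled IPKO were called higher and 5 and 6 lower, where 27.4% and 38.8% of all genes were called higher and 6.90% and 4.95% lower, and 34.3% and 43.8% in either direction. Cat, Txnrd3, Gstt1, Gstt3 and Glrx were called lower in both libraries. The counts of higher members include some that were measured through these cells alone, so that their call was fixed by the filter: Gsta1, Gsta2, Gsto1 and Gstm5 labelled WT, and Gsta1, Gsto1 and Gsto2 labelled IPKO. The sums of airway and AT2 markers given above moved with these values, and their part was not tested.

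Non-epithelial cells showed which members belong to other lung cells in this sort. Their Sftpc stood at 1.96% and 2.03% of the AT2 level, which gives the amount of AT2 RNA that free RNA could bring to them. The cells comprised 62 and 63 endothelial, 10 and 88 lymphocyte, 22 and 66 myeloid and 18 and 18 mesenchymal cells, so the class differs in makeup between the libraries and was not compared between them. All genes had a median log2 ratio of 0.86 and 0.65 against AT2 cells, which are dominated by Sftpc. In the library labelled WT 18 of 38 members were called higher and 9 lower, where 51.6% and 9.57% of all genes were called and 61.2% in either direction. In the library labelled IPKO 11 of 37 were called higher and 14 lower, where 50.4% and 14.4% were and 64.8% in either direction. The higher counts include members measured through the non-epithelial cells alone, so that their direction was fixed by the filter. These were Gstm5, Sod3, Gpx3 and Gsto1 in both libraries, and Gstm4 in the library labelled WT.

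Relative to the median of all genes, 7 members were higher in non-epithelial cells of both libraries (Sod3, Gpx3, Gsto1, Gstm5, Gsr, Gstm2 and Gstm1) and 17 lower. The share of all genes called in both libraries is not given here, with or without that correction. The counts are thus no result about the set. Sod3, Gpx3, Gsto1 and Gstm5 entered the comparison only through the non-epithelial cells, so their call was fixed by the filter. A group of 9 was called lower in both libraries without that correction as well: Prdx6, Cat, Gstt1, Gstt3, Gsta4, Gstz1, Txnrd3, Glrx and Gpx8. Prdx6 was at 138 and 153 CPM, against 533 and 520 in AT2 cells. Cat was at 101 and 61.3, and the amount AT2 RNA could bring was 9.28 and 8.20. Gsta4 was at 7.07 and 6.49, from 4 and 9 UMIs, where AT2 RNA could bring 1.12 and 1.52.

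By lineage, the secreted enzymes stood in mesenchymal cells. Sod3 was at 646 (491.5 to 833) and 1129.7 CPM there and Gpx3 at 1389.8 and 1122. In myeloid cells Sod3 had 0 UMIs in both libraries, which allows up to 15.4 and 5.78 CPM at 3 counts. Gstm1 and Gstm2 were also highest in mesenchymal cells, at 809.8 and 675, and at 295 and 244, and Gstm1 reached 592 and 370.3 in endothelial cells. These values rest on 18 mesenchymal cells in each library.

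Myeloid cells, which use an oxidative burst, had the highest levels of Gpx1 at 1216 and 1718 CPM, of Gsr at 482 and 314 and of Prdx5 at 703 and 681. Hmox1, which macrophages use to break down heme, was at 200.2 (142 to 274) and 90.6 (66.6 to 121) there, and Gsto1 at 128 and 114. Lymphocytes, with 10 cells labelled WT, had no UMI of Sod3, Gpx3, Hmox1, Gsta4 or Gstm2 in either library, which allows up to 64.0 and 5.94 CPM at 3 counts. Gstt1 was at 175 (100.1 to 284) and 187 (118 to 280.5) in mesenchymal cells and at 17.2 and 12.5 in endothelial cells.

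**Figure D4:**
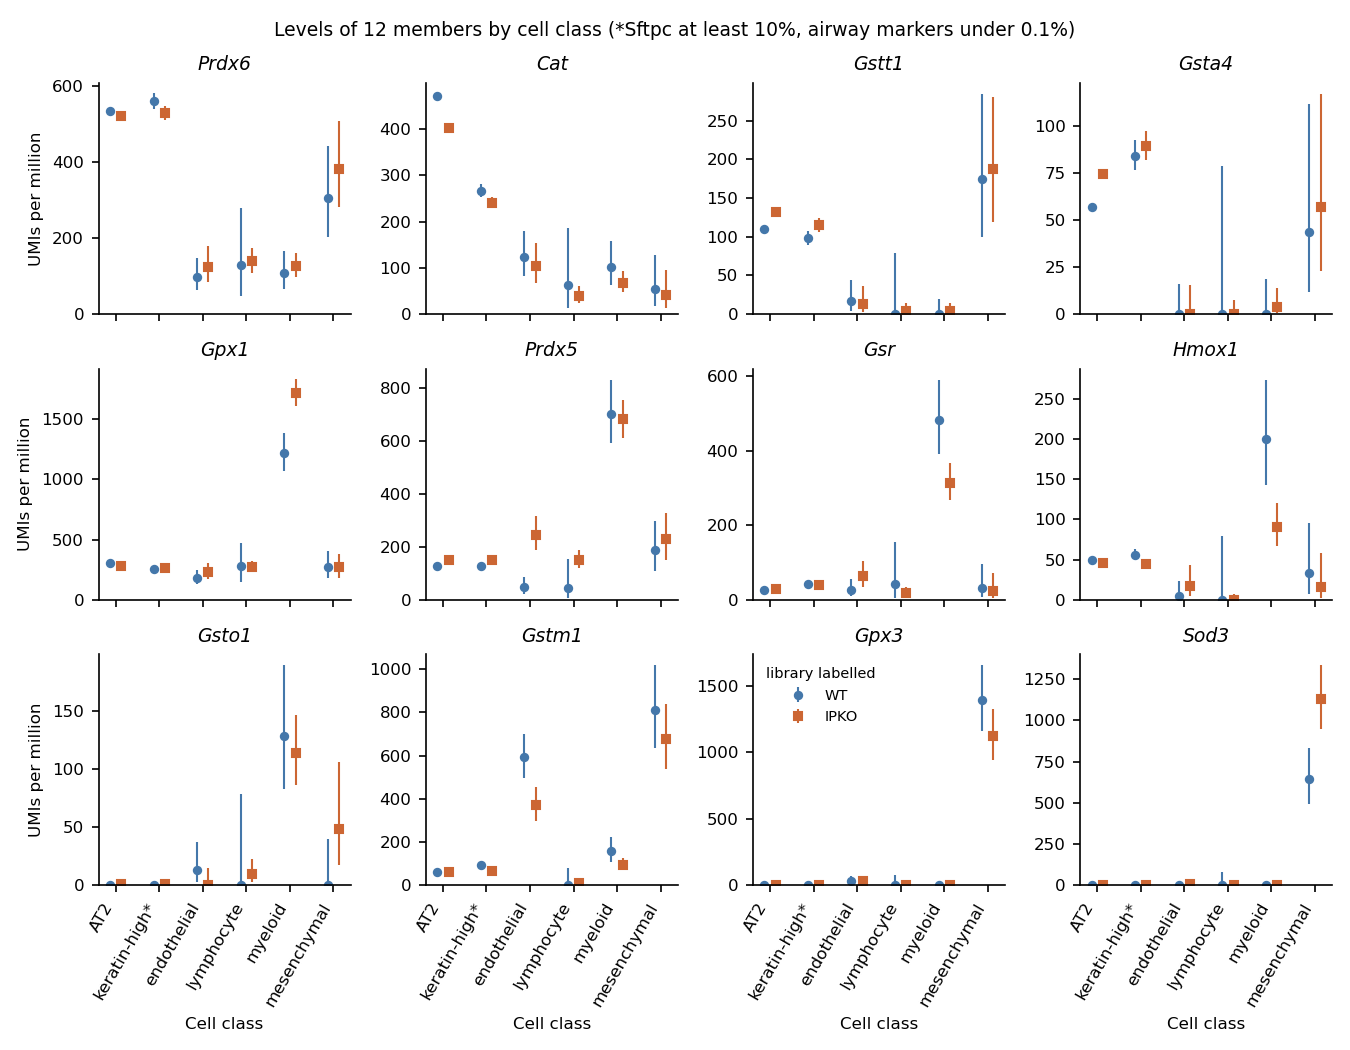
Level in CPM (vertical axes, each from 0) of 12 members in AT2 cells, keratin-high cells with Sftpc and few airway markers, and 4 non-epithelial lineages, for the library labelled WT (circles) and the library labelled IPKO (squares), with exact 95% Poisson intervals for counting error. Prdx6, Cat and Gsta4 are highest in the 2 epithelial classes by value, Gpx1, Prdx5, Gsr, Hmox1 and Gsto1 in myeloid cells and Gstm1, Gpx3 and Sod3 in mesenchymal cells.

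A list of 25 other genes of the NRF2 pathway and its targets, none of them in the set, was read in the same comparisons. In AT2 cells, 1 of 21 measured was called higher with the label IPKO and 3 were called lower, where 8.84% and 4.93% of all genes were, and the median log2 ratio was -0.02 beside 0.06 over all genes. The extremes were Bach1, a repressor of such genes (-0.84), and Maff, a small MAF partner (-0.59), against Cbr1 (0.35) and Blvrb (49.99 and 62.3 CPM, not called). Nfe2l2, which encodes NRF2, and Keap1, its inhibitor, had ratios of -0.04 and 0.05.

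In the restricted keratin-high cells, 9 of 22 were called higher and 1 lower than in AT2 cells labelled WT, and 4 and 1 labelled IPKO. Of all genes, 9.05% and 3.86% were called so labelled WT, and 5.35% and 2.66% labelled IPKO. The list's medians were 0.50 and 0.35, beside 0.10 and 0.07 over all genes. Akr1b8, an aldo-keto reductase, had ratios of 1.98 and 1.15, Cbr3 1.67 and 0.83 and Maff 1.45 and 0.92, while Idh1 had -0.62 and -0.63. Between the libraries in these cells, 0 of 22 were called higher and 10 lower labelled IPKO, where 7.45% and 5.99% of all genes were, with a median of -0.29 beside 0.03 over all genes. Maff had -1.12 and Cbr3 -0.90. Nfe2l2 (-0.05) and Keap1 (-0.01) were not called. The median early response share of these cells was 0.199% labelled WT and 0.494% labelled IPKO, and its part in the ratios of this list was not tested. The list was chosen with earlier results of these data known, so its counts are no independent support.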

How the data were processed

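The authors deposited raw count matrices of UMIs per gene and barcode for 2 libraries (10x Genomics 3' chemistry), made with Cell Ranger 4.0.0 on GRCm38 per the submitters' processing notes. Its gene annotation release: not given in the sources used here. Gene positions are from GENCODE vM21 and promoter windows from RefSeq (GRCm38.p6).

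Barcodes with at least 500 genes and at most 20% mitochondrial UMIs were kept (6745 and 8072 cells, 124228102 and 135001580 UMIs). No doublet caller was applied. Non-epithelial cells had at least 0.3% of UMIs and 5 UMIs from at least 2 markers of a lineage, and keratin-high cells had at least 3000 UMIs. Counts were summed per library and class and divided by the class total (CPM). Levels have exact Poisson intervals and ratios exact conditional binomial intervals, at 95%. A gene was measured in a comparison with a mean of at least 5 CPM.

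Genes were named by rule: members called between libraries in AT2 cells, the 12 highest in AT2 cells, members called alike in both libraries in another class, and 8 fixed genes. From each other list up to 2 highest and 2 lowest ratios were named. Members and lists were chosen with earlier results of these data known. There were 27 alternatives planned and 5 added after seeing the data. Scripts were tested on simulated data. Python 3.11.15, numpy 2.4.6, scipy 1.17.1, pandas 2.3.3 and matplotlib 3.10.9 were used.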

Additional observations from a re-analysis of the deposited data

Results flagged for a closer look

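Cells that passed the filters but fell in no class (187 labelled WT and 333 labelled IPKO) entered no comparison. In 4 members the counting interval there lay above the AT2 level in both libraries, with more than 3 UMIs in each. Gstm1 was at 193 and 81.6 CPM, Gstm2 at 57.7 and 13.7, Gpx2 at 40.7 and 16.6 and Gsto1 at 28.8 and 12.7. The 6 airway markers summed to 127394 and 39272 CPM in these cells and the median mitochondrial share was 14.4% and 12.2%. The part of either in these levels was not tested.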

How the results depend on the processing

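No paired analysis was possible because there is 1 library per genotype, and for the same reason no library could be left out. In AT2 cells the count of members higher in the library labelled IPKO was 4, and 7 with no filter on low values. The count of lower members was 0, with 1 at a minimum of 1 CPM, 2 with no filter and 1 among cells with 2 to 5% mitochondrial UMIs. Between keratin-high cells of the libraries, the count of higher members was 2, with 8 in the highest 2% by keratin share and 1 with at least 10% Sftpc, with or without the airway limit. Gsto1 reversed there, to 1.54 in the highest 2%, 2.24 with at least 10% Sftpc, 1.35 with the airway limit added and 0.27 with the early response limit added. The 2.24 and 1.35 rested on 3 UMIs labelled WT and on 16 and 9 labelled IPKO, and the interval of the 1.35 included 0. The 0.27 came from a part of the cells behind the 1.35. For keratin-high against AT2 cells labelled WT, the higher count of 12 became 7 after thinning to 3000 UMIs and 7 with at least 10% Sftpc, with or without the airway limit. The lower count of 2 became 1 in the highest 10%, 4 in the highest 2%, 4 after thinning, 4 under median-of-ratios scaling and 1 under either Sftpc limit. Under the 2 Sftpc limits Gstm2 became -0.25 and -0.21 and Gsto1 -0.33 and -0.23, where Gsto1 had 3 UMIs in the keratin-high cells under either limit. Labelled IPKO, the higher count of 10 became 5 in the highest 10%, 6 under median-of-ratios scaling and 2 under either Sftpc limit. The lower count of 1 became 0 in the highest 10%, 5 in the highest 2%, 3 after thinning and 2 under median-of-ratios scaling. For non-epithelial cells labelled WT, median-of-ratios scaling gave 9 higher and 17 lower in place of 18 and 9, with Prdx1 at -0.27, Hmox1 at -0.25, Prdx2 at -0.011 and Gstp1 at -0.044, and Hmox1 was at -2.48 with markers of at least 1% of UMIs. The cause of these shifts was not tested, and the share of all genes called under each setting is not given here. Changes in these counts are thus no result about the set. Over single genes, 743 alternative values stayed within the error of the reported one, 313 moved and 13 reversed.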

Other observations

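Other lists of redox genes were read in the same comparisons, against the same background shares. Of 19 genes of glutathione turnover, 15 were measured in AT2 cells, and 2 were called higher and 1 lower in the library labelled IPKO. Glrx2, a mitochondrial glutaredoxin, had a log2 ratio of 0.45, Glrx5, which serves iron-sulfur cluster assembly, 0.42, and Cth, which makes cysteine from cystathionine, -0.32. In the keratin-high cells with Sftpc and few airway markers, Mgst3, a membrane-bound transferase, was called higher than in AT2 cells in both libraries, at 1.26 and 1.04. Cth (-1.25 and -0.92) and Ggt5, a gamma-glutamyl transferase (-0.86 and -0.75), were called lower in both.

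Of 12 thioredoxin partners and methionine sulfoxide reductases, 11 were measured in AT2 cells. Msrb2 (0.46) and Txnl1 (0.34) were called higher labelled IPKO, and Msrb3 (-0.68) and Pdia6 (-0.39) lower. In the same keratin-high cells 0 of these 11 were called in either library. None of 10 measured selenoprotein genes was called in AT2 cells between the libraries. Among the oxidases, Cyba, a subunit of the NADPH oxidase, was called higher in those keratin-high cells in both libraries (1.04 and 0.63). Cybb, the catalytic subunit of phagocytes, was at 403 and 426 CPM in non-epithelial cells and at 0.0258 and 0.504 in AT2 cells, so it was measured through the non-epithelial cells alone.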
